A study of Mus musculus with 8 samples.

Results

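The genes that take glucose into the heart muscle cell and break it down, store it as glycogen or send it through the pentose phosphate pathway were compared between hearts of wild-type mice and of mice lacking Gpihbp1. The set holds 33 genes, all of them among the 17190 genes of the count table: 4 glucose transporters, 9 enzymes of upper glycolysis from hexokinase to triose phosphate isomerase, 7 of lower glycolysis from Gapdh to pyruvate kinase, 2 lactate dehydrogenase genes, 7 of glycogen turnover and 4 of the pentose phosphate pathway. They were chosen by symbol for their function. Wild-type hearts are numbered 2, 4, 5 and 6 and Gpihbp1-/- hearts 1, 2, 3 and 4. The mice were all males on standard chow, and the labels give no strain, age, litter or day of collection. They write the genotype of the deleted group as Gpihbp1-/- and name no promoter or cell type that would restrict the deletion. Gpihbp1 encodes the protein of capillary endothelium that carries lipoprotein lipase to the vessel lumen, so its loss limits the release of fatty acids from triglyceride-rich lipoproteins, and the study asked what that does to the heart.

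The adult heart burns mainly fatty acids, and glucose is its second fuel. Glucose enters the cardiomyocyte through the insulin-responsive transporter Slc2a4 (GLUT4) and the constitutive Slc2a1 (GLUT1), is trapped by hexokinase and then passes down glycolysis, into glycogen or into the pentose phosphate pathway, which makes NADPH and ribose. Most steps have a muscle-type isoform, found in cardiomyocytes, and one or more isoforms found in many cell types, among them fibroblasts, endothelium and macrophages.

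Promoter sequences are shown for 4 genes that the results below turn on: Gapdh, whose ranges in the genotypes were apart on one scale and overlapped on others, with no test passed on any; Ldha, a standard target of the hypoxia response; and the pair Pgam1 and Pgam2, a widely expressed and a muscle isoform of one enzyme that moved in opposite directions between individual hearts. Each run is the 250 bases before the annotated start in RefSeq (GRCm38.p6), read 5′ to 3′ on the gene's own strand. Capitals mark every match, on either strand, of 5 motifs. ACGTG is a form of the core of the hypoxia response element, and other forms of that core were not searched. ACGTG overlaps itself on the other strand where a C stands before it. The GC box is searched as GGGCGG. The other motifs are the TATA box (searched as TATAAA), the MEF2 consensus and the CArG box, given here by name. Gapdh lies at chr6:125165774-125166023 on the minus strand, Ldha at chr7:46845554-46845803 on the plus strand (the first of 2 windows listed for it), Pgam1 at chr19:41911621-41911870 on the plus strand and Pgam2 at chr11:5803797-5804046 on the minus strand.
Gapdh: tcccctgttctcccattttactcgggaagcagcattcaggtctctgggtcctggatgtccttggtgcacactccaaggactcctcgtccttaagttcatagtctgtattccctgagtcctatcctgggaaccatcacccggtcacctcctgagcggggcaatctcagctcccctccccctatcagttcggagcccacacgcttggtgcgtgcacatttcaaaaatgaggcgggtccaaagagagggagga
Ldha: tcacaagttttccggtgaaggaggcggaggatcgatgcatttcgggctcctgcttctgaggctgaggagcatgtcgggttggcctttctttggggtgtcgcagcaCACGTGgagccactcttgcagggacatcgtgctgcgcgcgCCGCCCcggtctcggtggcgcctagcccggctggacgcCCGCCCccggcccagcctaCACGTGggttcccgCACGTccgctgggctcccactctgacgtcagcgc
Pgam1: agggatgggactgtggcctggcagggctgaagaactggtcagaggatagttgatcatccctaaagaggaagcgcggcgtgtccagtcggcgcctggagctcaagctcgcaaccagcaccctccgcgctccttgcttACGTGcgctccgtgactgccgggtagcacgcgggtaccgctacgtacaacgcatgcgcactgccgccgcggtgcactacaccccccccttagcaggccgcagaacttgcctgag
Pgam2: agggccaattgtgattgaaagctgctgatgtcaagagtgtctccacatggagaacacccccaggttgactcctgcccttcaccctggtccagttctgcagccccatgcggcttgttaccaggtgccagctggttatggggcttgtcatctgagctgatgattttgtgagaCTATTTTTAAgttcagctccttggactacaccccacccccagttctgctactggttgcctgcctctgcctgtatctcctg

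The Ldha run holds 5 matches of ACGTG, counted on both strands, and 2 of GGGCGG. Pgam1 holds 1 ACGTG, from 114 to 110 bases before the start. Pgam2 holds the only MEF2 consensus among the set's promoters, from 80 to 71 bases before the start, and Gapdh has no match of any of these letters in this window. Windows were listed for 31 of the 33 genes, 44 windows in all. ACGTG was present in 34.1% of those 44 windows and in 16.6% of all 32851 windows of the same length. The GC box was present in 22 of the 44 and in 32.7% of all, the TATA box in 2.27% and 12.4%, the MEF2 consensus in 2.27% and 2.92%, and the CArG box in 0 windows and 1.47%. These are counts of letters and not of bound sites.

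Library totals ran from 9065553 to 13492957 counts. Gpihbp1 had 833 to 1951 reads in the wild-type libraries and 0 to 1 in the knockout libraries, so every library matched the genotype in its label. Ventricular muscle markers were high in every library, with the ventricular light chain Myl2 at 10292 to 38947 TPM (a level per transcript length, scaled to one sum in every library), while the skeletal myosins Myh1, Myh2 and Myh4 did not exceed 0.02 TPM in any. Over 7 marker lists of 56 genes for the cell types a dissected heart can hold, 44 genes were tested and 0 passed the threshold. Of all tested genes 0.0312% passed. Of the 44, 1, the atrial light chain Myl4, had an unadjusted p under 0.05 (edgeR), against 0.904% of all tested genes. Summed levels of the 10 ventricular markers were 54805 to 104038 TPM in the wild type and 57291 to 111384 in the knockout, of the 10 skeletal muscle markers 2405 to 3960.5 TPM in the wild type and 3689 to 4712 in the knockout, nearly all of it Ckm and Acta1, which the heart also expresses, and of the 8 endothelial markers 309 to 1232 TPM in the wild type and 409 to 888 in the knockout. The hearts numbered 2 of both groups and wild-type 6 stood apart. In wild-type 2 and knockout 2 the 8 fibroblast and matrix markers summed to 2904 and 3958 TPM, against 240 to 692 TPM in the others, and the 8 macrophage markers to 4993 and 4147 TPM, against 396 to 783. The 10 ventricular markers summed to 54805 and 57291 TPM in that pair, against 91822 to 111384 in the others. Not every marker followed its sum. In that pair the fibroblast marker Dcn had 533 and 487 TPM, against 176 to 520 in the others. Of the ventricular markers, Actc1 had 13238 and 17376 TPM, against 6755 to 20349, and Tnnc1 6755 and 6375, against 5576 to 8761. Wild-type 6 held 18552 TPM of the 7 erythroid markers, against 1257 to 5049 TPM in the others, and the atrial genes Myl4, Myl7 and Sln at 804, 643 and 665 TPM, which nowhere else exceeded 3.56, 1.72 and 0.87 TPM; the summed atrial list, which includes Nppa, was highest in knockout 2 at 10794 TPM and lowest in knockout 1 at 345 TPM. Wild-type 6 also had the highest summed FPKM, 1248961 against 688896 to 911768 elsewhere, a sum that is larger when reads fall on shorter transcripts. The part of these differences in the results below was not tested, and in whole hearts fewer cells of a type and less RNA per cell cannot be told apart.

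No gene of the set passed the threshold between the genotypes. Of 33 genes 32 were tested, and 0 were higher and 0 lower in the knockout (edgeR's quasi-likelihood test, threshold 0.05 on the adjusted p), where 0.0312% of all 12826 tested genes passed (0.0234% higher and 0.0078% lower). Those were 4 genes, Arc, Psca and H3c14 higher and the deleted Gpihbp1 lower, none of them in the glucose pathway. The adjusted p was 0.99998 for each of the 32. At an unadjusted p under 0.05 there were 0 of 32, against 0.904% of all tested genes, and DESeq2 likewise called 0. The log2 fold changes of knockout against wild type ran from -0.35 (Pgam2) to 0.68 (Gbe1), 20 positive and 12 negative, with a median of 0.13 where all tested genes had a median of -0.019 and 47.1% positive values. In CPM, counts scaled to library size with TMM factors, which is the scale of the test, the ranges of both genotypes overlapped for all 32, against 0.632% of tested genes whose ranges did not.

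The precision was low. Standard errors of the log2 fold changes ran from 0.25 (Pfkl) to 0.55 (G6pdx), and the 95% interval reached a 2-fold difference in at least 1 direction for 26 of the 32 genes. The other six, whose intervals stayed within 2-fold in both directions, were Slc2a3, Pfkl, Pgk1, Pkm, Pgm1 and Pgm2. The labels do not say that hearts of a group were collected separately, so the p-values measure only the spread between these 8 libraries.

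**Figure D1:**
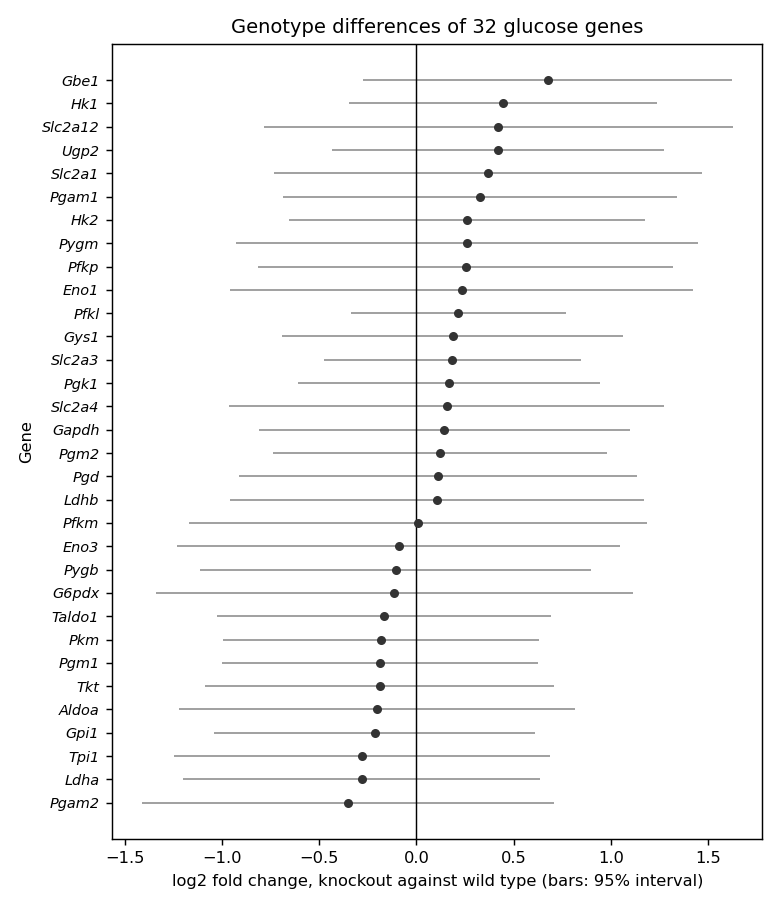
Log2 fold change of knockout against wild type (x axis) for the 32 tested genes (y axis, sorted), from edgeR's quasi-likelihood fit over 4 hearts per genotype, with bars for the 95% interval. Every interval spans 0; Gbe1 at 0.68 and Pgam2 at -0.35 are the ends of the range.

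Over the 8 hearts Gapdh had the highest mean, 8087 TPM, followed by Aldoa with 4496, Ldhb with 2039, Pgam2 with 1417, Eno3 with 1314, Pkm with 989.6, Ldha with 922 and Tpi1 with 874. Gapdh exceeded Aldoa and Aldoa exceeded Ldhb in all 8 hearts, while from Ldhb down to Tpi1 the ranges of neighbours overlapped. At the other end were Slc2a12 with 2.77, Slc2a3 with 1.502 and Aldoc with 0.168 TPM. The 33 genes together took 1.90% to 2.56% of all TPM in the wild type and 2.47% to 2.84% in the knockout, and these ranges overlapped through wild-type 5.

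The most abundant glucose transporter was Slc2a4, the insulin-responsive one, with 234 TPM on average against 20.3 TPM for Slc2a1. Slc2a4 stood at 185, 279, 610.3 and 659 CPM in wild-type 2, 4, 5 and 6 and 416, 228, 682 and 605 CPM in knockout 1, 2, 3 and 4. It was lowest in the hearts numbered 2 of both genotypes, and the groups overlapped, at a log2 fold change of 0.16, its 95% interval from -0.97 to 1.28. Slc2a1 stood at 62.1, 15.02, 25.2 and 29.2 CPM in wild-type 2, 4, 5 and 6 and 25.03, 80.2, 29.7 and 35.1 CPM in knockout 1, 2, 3 and 4. Its order was the opposite one, with wild-type 2 and knockout 2 highest, and the log2 fold change of 0.37 had a standard error of 0.49. Slc2a12, a further insulin-responsive transporter of muscle, had 3.06, 2.76, 12.8 and 8.29 CPM in wild-type 2, 4, 5 and 6 and 8.14, 4.397, 12.5 and 11.02 CPM in knockout 1, 2, 3 and 4, low in wild-type 2, wild-type 4 and knockout 2 (log2 fold change 0.42, standard error 0.54). The high-affinity transporter Slc2a3 ran from 2.97 to 5.57 CPM in the wild type and 3.86 to 5.31 in the knockout, at a log2 fold change of 0.18.

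Hexokinase, the step that traps glucose as glucose 6-phosphate, was split between Hk1, with a mean of 70.2 TPM, and Hk2, with 70.9 TPM. Hk1 stood at 199, 114, 249 and 102 CPM in wild-type 2, 4, 5 and 6 and 155, 290.4, 229 and 229.7 CPM in knockout 1, 2, 3 and 4, with the low values in wild-type 4 and wild-type 6 and the rest interleaved. Its log2 fold change of 0.45 (95% interval -0.35 to 1.24, unadjusted p = 0.236 in edgeR's quasi-likelihood test) was the second largest positive value of the set and did not pass. Hk2, the isoform of muscle that insulin induces, had 215, 152, 471 and 167 CPM in wild-type 2, 4, 5 and 6 and 226, 253, 342 and 383 CPM in knockout 1, 2, 3 and 4. Wild-type 5 was the highest and wild-type 4 the lowest, so the wild type spanned the whole knockout range (log2 fold change 0.26, standard error 0.41).

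Of the remaining upper glycolytic enzymes, Aldoa, the muscle aldolase, was the most abundant. It stood at 3621, 3701, 4151 and 9822 CPM in wild-type 2, 4, 5 and 6 and 4616, 3584, 5412 and 4902 CPM in knockout 1, 2, 3 and 4. Wild-type 6 was far above the other seven on this scale, which stayed between 3584 and 5412 CPM; in TPM wild-type 6 lay among them, at 4486 with the others from 3390.4 to 5149. Tpi1, which interconverts the triose phosphates, was likewise highest in wild-type 6, at 835, 601, 759 and 2037 CPM in wild-type 2, 4, 5 and 6 and 758, 813, 1005 and 909 CPM in knockout 1, 2, 3 and 4, with a log2 fold change of -0.28 (standard error 0.43) that was 0.24 without wild-type 6. Gpi1, the phosphoglucose isomerase, likewise had 1762 CPM in wild-type 6 and 733 to 1029 in the other hearts (log2 fold change -0.21). In TPM wild-type 6 was the lowest heart for Gpi1, at 359, and lay among the others for Tpi1, at 891. The TMM factor of wild-type 6 was 0.678, against 0.964 to 1.16 in the other libraries. That heart was the highest for 10 of the 32 genes in TMM-scaled CPM. In TPM it was the highest for 0 and the lowest for 19. Phosphofructokinase, the committed step of glycolysis, was mostly the muscle subunit Pfkm, at 444 to 1476 CPM in the wild type and 402 to 1394 in the knockout, with a log2 fold change of 0.0097 (95% interval -1.17 to 1.19). The liver-type subunit Pfkl had the smallest standard error of the set: it stood at 151, 124, 198 and 164 CPM in wild-type 2, 4, 5 and 6 and 144, 191, 214 and 192 CPM in knockout 1, 2, 3 and 4, the groups overlapped, and the log2 fold change was 0.22 with an interval from -0.34 to 0.77. The platelet-type subunit Pfkp ran from 47.6 to 152 CPM in the wild type and 55.5 to 191 in the knockout (log2 fold change 0.25). Aldoc, the brain aldolase, was under the count filter, with 21 reads in wild-type 2, 7 in knockout 2 and 0 to 2 in each of the other six libraries.

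Gapdh, the enzyme that oxidises glyceraldehyde 3-phosphate and a usual reference gene of quantitative PCR, gave different pictures on different scales. In TPM it stood at 7665, 6075, 7137 and 6127 in wild-type 2, 4, 5 and 6 and at 8497, 9625, 10098 and 9471 in knockout 1, 2, 3 and 4. All 4 knockout hearts were above all 4 wild-type hearts, 6751 ± 781 against 9423 ± 672 TPM (SD, n = 4 each), a ratio of 1.396. Gapdh was the 1 gene of the 32 whose TPM ranges did not overlap, where 0.608% of all tested genes did not overlap on that scale and 0.515% did so with the knockout higher; it was singled out after its values were seen. On the TMM-scaled CPM of the test it had 7217, 4945, 5746 and 11936 CPM in wild-type 2, 4, 5 and 6 and 7212, 7514, 9717 and 8529.9 CPM in knockout 1, 2, 3 and 4, and wild-type 6 was the highest of all hearts. The log2 fold change on that scale was 0.14, with a 95% interval from -0.81 to 1.10 (unadjusted p = 0.742, adjusted p = 0.99998, edgeR). Scaled by total counts alone, wild-type 6 at 8077 CPM lay above knockout 1 at 7882, the ranges overlapped as they did for all but 0.671% of tested genes, and the ratio of means was 1.26. Fitted on log2(TPM + 1) with limma, an alternative chosen after seeing the data, Gapdh had a difference of 0.49 (limma unadjusted p = 0.129, adjusted p = 0.923), on a scale where the median of all tested genes was 0.25. Without wild-type 6 the edgeR log2 fold change was 0.45 (unadjusted p = 0.199), and without wild-type 4 it was -0.0021. Without wild-type 6 and both hearts numbered 2 it was 0.67 (unadjusted p = 0.0367, adjusted p = 0.99986, edgeR). In that fit 1 of the 32 members and 252 of all tested genes had an unadjusted p under 0.05 (edgeR).

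**Figure D2:**
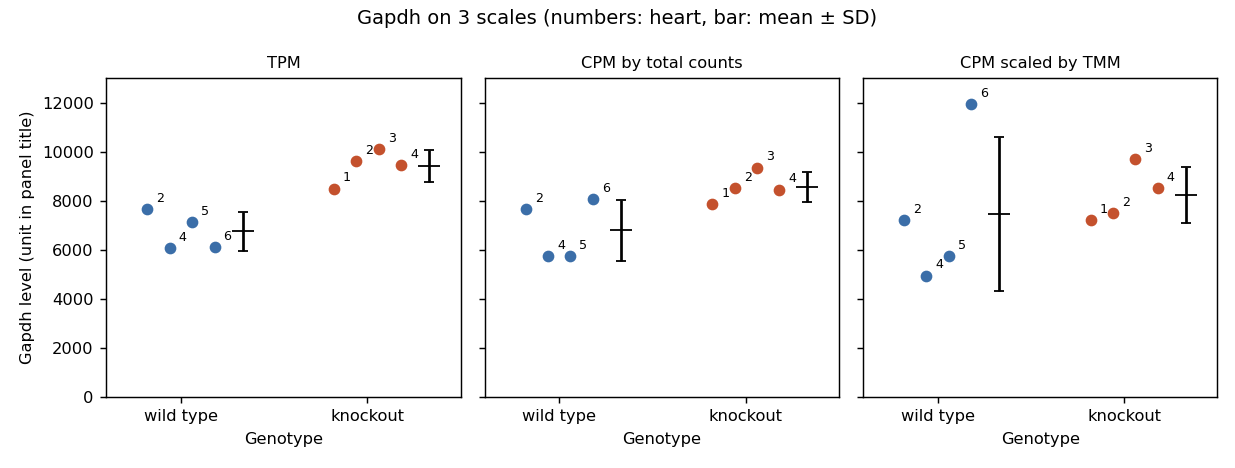
Gapdh in each heart (points, numbered by heart, with mean ± SD, n = 4 per genotype) on 3 scales: TPM, CPM by total counts and CPM scaled by TMM (y axis from 0). The genotypes separate in TPM, at 6075 to 7665 against 8497 to 10098, and overlap on both CPM scales. Wild-type 6 stands at 6127 TPM, 8077 CPM by total counts and 11936 CPM scaled by TMM.

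The steps below Gapdh did not separate the genotypes on either scale. Pgk1, which makes the first ATP of glycolysis, ran from 309 to 643 CPM in the wild type and 421 to 793 in the knockout (log2 fold change 0.17, interval -0.61 to 0.94). Pgam2, the muscle phosphoglycerate mutase, stood at 534, 854, 597 and 1841 CPM in wild-type 2, 4, 5 and 6 and 809.6, 428, 944 and 812 CPM in knockout 1, 2, 3 and 4. Wild-type 6 was the highest and knockout 2 the lowest, and the log2 fold change of -0.35 (standard error 0.47) was 0.16 without wild-type 6. Its widely expressed counterpart Pgam1 had 290.3, 95.5, 120.1 and 152 CPM in wild-type 2, 4, 5 and 6 and 122, 369, 179.9 and 155 CPM in knockout 1, 2, 3 and 4, with both hearts numbered 2 on top (log2 fold change 0.33, standard error 0.45). Eno3, the muscle enolase, stood at 739, 1227, 1333 and 2729 CPM in wild-type 2, 4, 5 and 6 and 1437, 604, 1809 and 1806 CPM in knockout 1, 2, 3 and 4, lowest in the same pair of hearts and highest in wild-type 6. Eno1, the ubiquitous enolase, had 577, 229, 205 and 342 CPM in wild-type 2, 4, 5 and 6 and 232, 849, 270.1 and 238 CPM in knockout 1, 2, 3 and 4, the reverse order in the hearts numbered 2. Their fold changes were -0.092 and 0.23 on the log2 scale, with standard errors of 0.51 and 0.53. The near-identical copy Eno1b had at most 6 reads in a library, while Eno1 had 2349 to 12943. Pyruvate kinase Pkm ran from 1169 to 2689.7 CPM in the wild type and 1374 to 1711 in the knockout, at a log2 fold change of -0.18, its interval from -0.996 to 0.63. Summed over the 7 genes of lower glycolysis, the level was 9923 to 12019.8 TPM in the wild type and 13171 to 15258 in the knockout. Gapdh alone made up the larger part of that sum in every heart, and each of the other genes in it overlapped between the genotypes in TPM. On log2(TPM + 1) 86.1% of all tested genes had a positive difference, and the sum itself was not tested.

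Of the lactate dehydrogenase genes, Ldhb, the heart-type subunit that favours lactate oxidation, had the higher mean. Ldhb stood at 901, 1598, 1975 and 2554 CPM in wild-type 2, 4, 5 and 6 and 2117, 786, 2398 and 2258 CPM in knockout 1, 2, 3 and 4. The lowest values were those of wild-type 2 and knockout 2, and among the other six hearts the groups overlapped as well (log2 fold change 0.11, interval -0.96 to 1.17). Ldha, the muscle-type subunit that favours lactate formation and whose promoter is shown above, had 1200.0, 724, 863 and 2144 CPM in wild-type 2, 4, 5 and 6 and 889, 1229, 1045 and 894 CPM in knockout 1, 2, 3 and 4. Wild-type 6 was the highest, and the log2 fold change was -0.28 with a standard error of 0.41, or 0.11 without wild-type 6.

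Genes of glycogen turnover held the largest positive log2 fold change of the set, that of Gbe1, which did not pass the threshold. Gbe1, the branching enzyme that adds side chains to growing glycogen, stood at 28.9, 14.8, 59.4 and 20.2 CPM in wild-type 2, 4, 5 and 6 and 33.3, 42.1, 64.02 and 57.9 CPM in knockout 1, 2, 3 and 4. Wild-type 2, 4 and 6 were below all knockout hearts and wild-type 5 was above all of these but knockout 3. The means were 30.8 ± 19.9 CPM in wild-type and 49.3 ± 14.1 in knockout hearts (SD, n = 4 per genotype), a log2 fold change of 0.68 (standard error 0.42, unadjusted p = 0.143, adjusted p = 0.99998, edgeR). Without wild-type 5 the edgeR log2 fold change was 1.21 (unadjusted p = 0.00515, adjusted p = 0.758), and over the fits that left out 1 library it ran from 0.45 to 1.21. Ugp2, which makes the UDP-glucose that glycogen synthase uses, had 177, 114, 325 and 193 CPM in wild-type 2, 4, 5 and 6 and 226, 172, 345 and 340.3 CPM in knockout 1, 2, 3 and 4, again with wild-type 5 among the high knockout values (log2 fold change 0.42, standard error 0.38). Gys1, the muscle glycogen synthase, ran from 73.7 to 215 CPM in the wild type and 103 to 213 in the knockout (log2 fold change 0.19). Pygm, the muscle phosphorylase that releases glucose 1-phosphate from glycogen and the most abundant gene of this role at 574 TPM, stood at 424, 882, 1914 and 1265 CPM in wild-type 2, 4, 5 and 6 and 1205, 598, 1784 and 1781 CPM in knockout 1, 2, 3 and 4. Wild-type 2 and knockout 2 were lowest and wild-type 5 highest (log2 fold change 0.26, interval -0.93 to 1.45). The brain-type phosphorylase Pygb ran from 327 to 1088 CPM in the wild type and 454 to 852 in the knockout (log2 fold change -0.11). The phosphoglucomutase Pgm1 ran from 149 to 424 CPM in the wild type and 197 to 281 in the knockout and Pgm2 from 4.92 to 14.6 CPM in the wild type and 7.93 to 13.8 in the knockout, with log2 fold changes of -0.19 and 0.12; by gene identifier, Pgm1 (NCBI gene 72157) is the gene that older tables call Pgm2, and Pgm2 (NCBI gene 66681) the one they call Pgm1.

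The 4 pentose phosphate genes were highest in the hearts numbered 2 of both genotypes. Of all tested genes, 22.2% had these hearts as the top pair in TMM-scaled CPM and 25.9% in TPM. Taldo1, the transaldolase of the non-oxidative branch and the most abundant of the 4, stood at 226, 89.4, 94.7 and 188 CPM in wild-type 2, 4, 5 and 6 and 97.02, 204, 125 and 106 CPM in knockout 1, 2, 3 and 4. Wild-type 6 came next after the hearts numbered 2 on this scale, while in TPM it was the lowest heart, at 97.2. The groups overlapped on both scales (log2 fold change -0.17, standard error 0.38). G6pdx, the rate-limiting and NADPH-forming first enzyme, had 48.5 and 44.6 CPM in wild-type 2 and knockout 2 and 10.7 to 19.4 CPM in the other six hearts. Pgd, which forms the second NADPH, had 108 and 122 CPM in that pair and 36.02 to 55.5 elsewhere. Tkt, the transketolase, had 116 and 92.7 CPM, with 30.6 to 71.1 in the others. Their log2 fold changes between genotypes were -0.11, 0.11 and -0.19, with standard errors from 0.40 to 0.55.

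**Figure D3:**
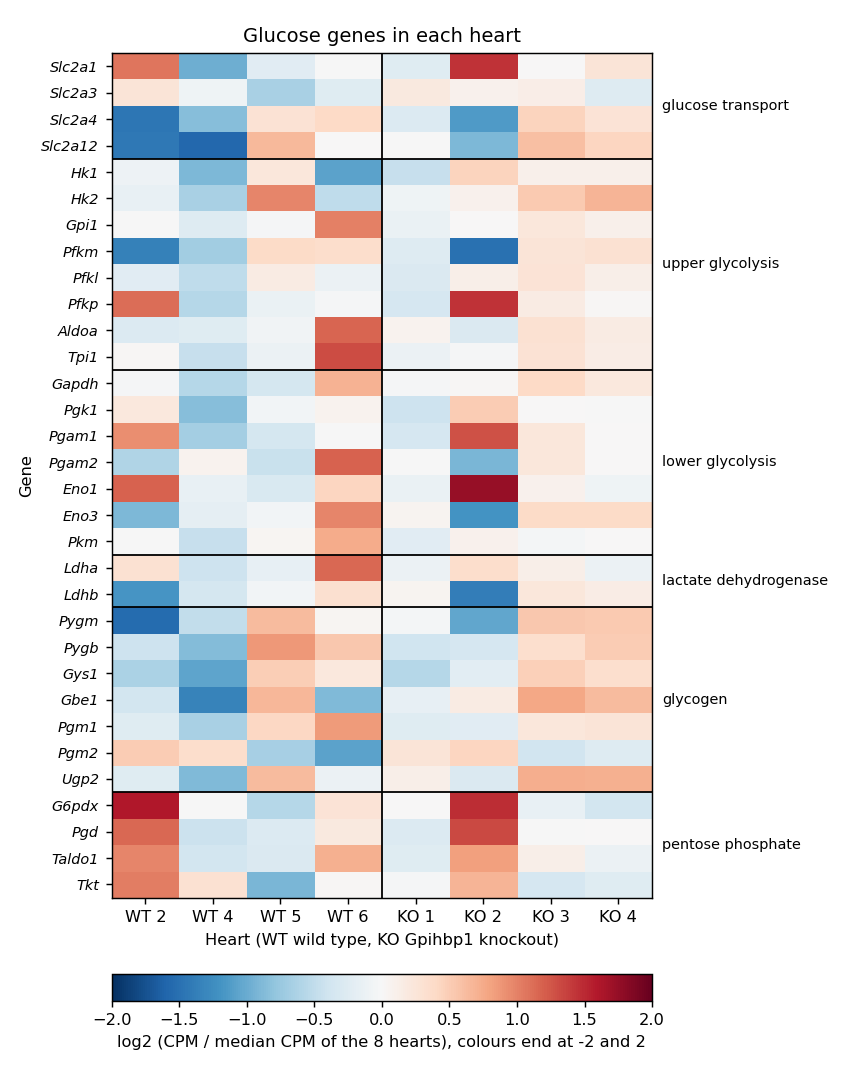
Each tested gene (rows, grouped by role) in each heart (columns), as log2 of its TMM-scaled CPM over its median in the 8 hearts (colour, ending at -2 and 2). In both hearts numbered 2 the muscle isoforms Slc2a4, Pfkm, Eno3 and Pygm and the heart-type Ldhb are low. Slc2a1, Pfkp, Pgam1, Eno1 and the pentose phosphate genes are high in them. Wild-type 6 is high for Aldoa, Tpi1, Pgam2 and Ldha on this scale.

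Within a step, the balance of isoforms differed between individual hearts, and its difference between genotypes was within their spread. A share of isoforms in TPM does not depend on how libraries are scaled. Over 9 shares compared by an exact two-sided permutation test over the 70 arrangements of 8 hearts, 0 passed after Benjamini-Hochberg adjustment (adjusted p from 0.868 to 1); the smallest p the design allows is 0.0286. For Slc2a1 in the sum with Slc2a4 the share was 23.7% in wild-type 2 and 26.02% in knockout 2, against 3.81% to 5.62% in the other six hearts. Of the enolase level, Eno1 made up 39.2% in wild-type 2 and 53.96% in knockout 2, against 9.16% to 13.1% in the other six hearts. By genotype it was 18.2% ± 14.1 in wild-type and 21.7% ± 21.5 in knockout hearts (SD, n = 4 per genotype; exact permutation p = 0.771, adjusted p = 0.868). Of phosphoglycerate mutase, Pgam1 made up 18.5% in wild-type 2 and 26.4% in knockout 2, against 3.36% to 7.67% in the other six hearts. For the non-muscle phosphofructokinase subunits Pfkl and Pfkp the values were 35.2% in wild-type 2 and 42.4% in knockout 2, against 11.3% to 15.8% in the other six hearts. In these 4 steps the widely expressed isoforms had their highest shares in the hearts numbered 2, in both genotypes.

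The same pair of hearts led most of the other steps. Of lactate dehydrogenase, Ldha made up 50.3% in wild-type 2 and 54.4% in knockout 2, against 23.2% to 39.2% in the other six hearts, the highest of which was wild-type 6; by genotype it was 35.05% ± 12.1 in wild-type and 31.7% ± 15.1 in knockout hearts (SD, n = 4 per genotype; exact permutation p = 0.743, adjusted p = 0.868). Of glycogen phosphorylase, Pygb made up 43.6% in wild-type 2 and 36.5% in knockout 2, against 21.3% to 33.4% in the other six hearts. For Hk1 in hexokinase the share was 56.1% in wild-type 2 and 61.1% in knockout 2, against 42.3% to 50.9% in the other six hearts. Aldoc stayed at or below 0.0206% of aldolase in every heart. Pgm2 was the exception, with 7.91% in wild-type 4 above 6.73% and 6.29% in wild-type 2 and knockout 2. In 8 of the 9 shares the hearts numbered 2 were therefore the highest pair. That count includes Aldoc, which was under the count filter, with 21 reads in wild-type 2 and 7 in knockout 2. These are the hearts with the high fibroblast and macrophage marker sums and the low ventricular marker sums given above, and their part in these shares was not tested. Gene by gene, both hearts were the top pair in TPM for 9 of the 32 genes and the bottom pair for 5, where 25.9% and 5.15% of all tested genes did so; on the TMM-scaled CPM it was 10 and 7 genes, against 22.2% and 16.4%.

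**Figure D4:**
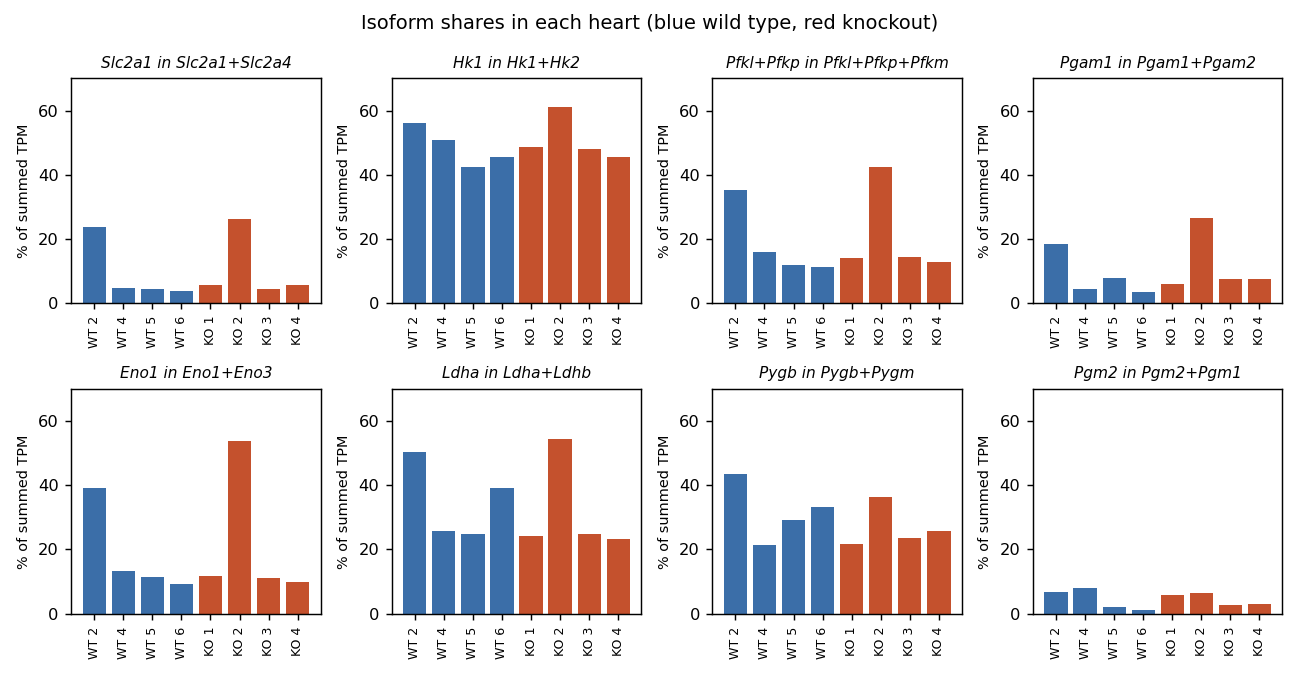
Share of the summed TPM of a step that comes from the isoform named first in the panel title (y axis, percent), for 8 steps. Bars are single hearts (x axis, blue wild type, red knockout). For lactate dehydrogenase the isoform is Ldha, the muscle-type subunit. For Slc2a1, Pfkl with Pfkp, Pgam1 and Eno1 the bars of wild-type 2 and knockout 2 stand above all others, with Eno1 at 39.2% and 54.0% against at most 13.1%; the genotypes overlap in all 8 panels.

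Other genes of the glucose pathway, listed by function as 77 symbols, did not pass either. Of these symbols 74 were among the counted genes and 70 were tested. In edgeR's quasi-likelihood test 0 were higher and 0 lower, where 0.0312% of all tested genes passed. There were 43 positive and 27 negative log2 fold changes with a median of 0.11. All tested genes had 47.1% positive values and a median of -0.019. Where 0.904% of all tested genes had an unadjusted p under 0.05 (edgeR), 2 of the 70 did. The first of these was Fbp2, the muscle fructose bisphosphatase that opposes phosphofructokinase. It stood at 13.03, 32.9, 33.4 and 60.9 CPM in wild-type 2, 4, 5 and 6 and 6.28, 2.17, 8.32 and 6.03 CPM in knockout 1, 2, 3 and 4. Every knockout heart was below every wild-type heart, which was true of 1 gene of the 70 and of 0.366% of all tested genes, with a log2 fold change of -2.62 (standard error 0.52, unadjusted p = 0.000592, adjusted p = 0.99998, edgeR). DESeq2 gave Fbp2 an adjusted p of 0.00212, and edgeR without wild-type 2, wild-type 6 and knockout 2 an adjusted p of 0.0473. With 1 library left out its adjusted p in edgeR was 0.169 to 0.99997. The second was Pdk4, the kinase that keeps pyruvate out of the citric acid cycle, at 44.9, 57.2, 175 and 106 CPM in wild-type 2, 4, 5 and 6 and 26.5, 42.5, 55.1 and 54.6 CPM in knockout 1, 2, 3 and 4 and a log2 fold change of -1.10 (unadjusted p = 0.0329, adjusted p = 0.99998, edgeR). Wild-type 5 was the highest heart, and without it the log2 fold change of Pdk4 was -0.63 (unadjusted p = 0.118, adjusted p = 0.800, edgeR); on log2(TPM + 1) it was -0.60 (limma unadjusted p = 0.235). Pfkfb3, which makes the activator of phosphofructokinase, had 0.55 (standard error 0.31), and the lactonase Pgls of the pentose pathway -0.73 (standard error 0.41). Txnip, a glucose-induced restraint on glucose uptake, had -0.10 with an interval from -0.91 to 0.71.

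Genes induced in hypoxia that are not in the set were listed as 17 symbols. Of these 16 were among the counted genes and 14 were tested. In edgeR 0 passed the threshold and 0 had an unadjusted p under 0.05, where 0.0312% and 0.904% of all tested genes did. All tested genes had 47.1% positive values and a median of -0.019, while the 14 had 8 positive and 6 negative log2 fold changes and a median of 0.13. Those of smallest p were Egln3 at 0.60, Adm at 0.37, Higd1a at -0.36 and Ndrg1 at -0.26, with standard errors from 0.32 to 0.50. Hypoxia also induces members of the set, for which no list was fixed in advance. As examples, Slc2a1, Ldha, Pgk1, Eno1 and Hk2 had log2 fold changes of 0.37, -0.28, 0.17, 0.23 and 0.26. Of the other glycolytic members, Aldoa, Tpi1, Pkm and Gpi1 had -0.20, -0.28, -0.18 and -0.21. Over all 32 tested members 20 values were positive and 12 negative.

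How many of the set lay above 0 depended on the scaling and on the libraries used. On TMM-scaled counts 20 of 32 were positive, with total counts alone 26 of 32 (63.1% of all genes) and in the limma fit of log2(TPM + 1) 32 of 32 (86.1% of all genes). The total-count scale moved the median of all tested genes by 0.10 and the TPM scale by 0.27 on the log2 scale, and on the TPM scale the set's median was 0.41 beside 0.25 for all genes. Without wild-type 6, 28 of 32 were positive on TMM-scaled counts, against 43.2% of all genes, without that heart and both hearts numbered 2 it was 29 of 32 (50.5% of all genes), and without wild-type 4 or without knockout 2 it was 15 of 32. In each of the fits just given 0 of the 32 passed the threshold.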

How the data were processed

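RNA of 8 hearts was sequenced from strand-specific libraries of polyadenylated RNA on a DNBSEQ instrument, per the labels' protocols. One paragraph of those protocols names rat tissue, while every sample is labelled mouse. HISAT, Bowtie2 and the build GRCm39 appear in the submitters' processing notes, and the sources used here name no counting program. Per the file headers, the authors deposited 1 table with an estimated count, FPKM and TPM for each gene and library. Between 4.32% and 5.89% of the estimated counts were not whole. Empty per-sample columns, 8 in number, were not used. The table lists 0 mitochondrially encoded genes.

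Estimated counts were rounded, filtered with filterByExpr (minimum count 10, minimum total 15; 12826 genes kept), scaled by TMM and tested with edgeR 4.0.16 (robust quasi-likelihood F-test, R 4.3.3), with Benjamini-Hochberg adjustment over all tested genes and a threshold of 0.05. The procedure was tested on simulated data. Isoform shares are percents of summed deposited TPM and were compared by exact permutation. Alternatives were RLE size factors, total counts, DESeq2 1.42.0, no filter, a filter at a mean of 10 CPM, a fit that is not robust, a replicate block, leaving out each library, leaving out the hearts that stood apart and, added after seeing the data, limma 3.58.1 on log2(TPM + 1) and the shares without both hearts numbered 2. Every member is named; values of every library are given for the 10 members of smallest p, for the most abundant of each role, for 4 isoform pairs and for members whose groups do not overlap. Of the other glucose pathway genes and the hypoxia-inducible genes, the 4 of smallest p in each list are named, with Fbp2, Pdk4 and Txnip. Marker lists are given as sums, with single markers named after their values were seen, as were Arc, Psca, H3c14 and Ppp1r3a. The members and lists were chosen with earlier results of these data known. Promoter windows are RefSeq's for GRCm38.p6, matched by gene identifier and used for sequence and not for reads.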

Additional observations from a re-analysis of the deposited data

Results flagged for a closer look

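Within a genotype, 82 groups of 4 hearts were examined for a value far from the rest, and 14 were found. The rule is set so that chance alone gives about 1 in 20 for a single group. These groups come from the same hearts and are not independent, so the 14 cannot be weighed against that rate. Wild-type 6 stood apart in CPM for Gpi1 (1762), Aldoa (9822) and Tpi1 (2037). Knockout 2 stood apart in CPM for Eno1 (849), G6pdx (44.6) and Pgd (122). Among isoform shares, wild-type 2 stood apart for Slc2a1 (23.7%), Eno1 (39.2%) and Aldoc (0.0206%, from 21 reads). Knockout 2 stood apart for the shares of Slc2a1 (26.0%), Pfkl with Pfkp (42.4%), Pgam1 (26.4%), Eno1 (54.0%) and Ldha (54.4%). Every one of the 14 lay in wild-type 2, knockout 2 or wild-type 6, the hearts whose cell type markers also stood apart.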

How the results depend on the processing

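Of 32 tested members, 0 passed in any alternative except under the replicate block, and 6 kept their sign in all 18 alternatives. The count of genes past the threshold over the whole table was 4, 8 with DESeq2, 2 with the strict filter of a mean of 10 CPM, 168 with the replicate block and 2 to 3 when 1 library was left out, lowest when wild-type 4 or wild-type 5 was the one removed. The other glucose pathway genes past the threshold numbered 0, but 1 with DESeq2 and 1 without both hearts numbered 2 and wild-type 6 (Fbp2 in both), and 2 with the replicate block (Fbp2 at -2.51, adjusted p = 6.77e-13, and Ppp1r3a at 1.18, adjusted p = 0.0182, edgeR). The numbers 2 and 4 occur in both groups, with no label saying that they pair hearts; deviations of same-numbered hearts from their group means correlated at 0.91 for number 2 and 0.11 for number 4, too few pairs to take the numbers as a pairing. With the replicate block 1 member passed, Gbe1, at a log2 fold change of 1.24 (edgeR adjusted p = 0.00495). The members' median was 0.43, and 27 of 32 were positive (51.9% of all genes). Of the 32, 7 had an unadjusted p under 0.05 in that fit (edgeR), as did 1448 of all 12826 tested genes. There Pdk4 was at -0.073 (unadjusted p = 0.809). By construction the genotype estimate of that fit rests on the 4 hearts numbered 2 and 4, with 1 residual degree of freedom. With limma on log2(TPM + 1) that median was 0.41. The cause of these differences was not tested.

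Signs changed as follows on the log2 scale: with the replicate block, Slc2a3 -0.18, Gpi1 0.18, Aldoa 0.20, Tpi1 0.28, Eno3 0.13, Pkm 0.28, Ldha 0.17, Pygb 0.73, Pgm1 0.47, Pgm2 -0.33 and Taldo1 0.046; with total counts alone, Aldoa 0.018, Eno3 0.10, Pkm 0.0036, Pygb 0.043, Pgm1 0.0046, G6pdx 0.0041 and Txnip 0.0045; with RLE size factors, Pfkm -0.0017; with DESeq2, Pfkm -0.0014. On log2(TPM + 1) they were Gpi1 0.20, Aldoa 0.22, Tpi1 0.22, Pgam2 0.11, Eno3 0.26, Pkm 0.20, Ldha 0.17, Pygb 0.33, Pgm1 0.24, G6pdx 0.22, Taldo1 0.22, Tkt 0.22, Txnip 0.17, Higd1a 0.086 and Ndrg1 0.11. Without both hearts numbered 2, Eno1 -0.066 changed sign. Without them and wild-type 6, it was Gpi1 0.21, Aldoa 0.34, Tpi1 0.39, Pgam2 0.24, Eno3 0.40, Pkm 0.11, Ldha 0.25, Pgm1 0.12, Pgm2 -0.023, G6pdx 0.10, Taldo1 0.25, Txnip 0.020 and Higd1a 0.26. With 1 library left out the ranges that crossed 0 were Slc2a4 -0.095 to 0.41, Pfkm -0.24 to 0.28, Ldhb -0.11 to 0.36, Pygm -0.011 to 0.65, G6pdx -0.73 to 0.51, Taldo1 -0.45 to 0.10, Tkt -0.47 to 0.18, Gapdh -0.0021 to 0.45, Pgk1 -0.017 to 0.29, Gys1 -0.022 to 0.46, Pgd -0.39 to 0.56, Ndrg1 -0.48 to 0.065, Pygb -0.33 to 0.22, Pgm2 -0.11 to 0.37, Gpi1 -0.35 to 0.13, Aldoa -0.34 to 0.26, Tpi1 -0.47 to 0.24, Pgam2 -0.55 to 0.16, Eno3 -0.32 to 0.34, Pkm -0.33 to 0.069, Ldha -0.46 to 0.11, Pgm1 -0.38 to 0.10, Higd1a -0.54 to 0.057, Slc2a1 -0.14 to 0.88, Pfkp -0.28 to 0.72, Pgam1 -0.11 to 0.75, Eno1 -0.45 to 0.62 and Txnip -0.25 to 0.11. For isoform shares these ranges, in percentage points of knockout minus wild type, were Aldoc -0.00561 to 0.000850, Ldha -10.9 to 1.77, Pgm2 -1.12 to 1.15, Slc2a1 -4.02 to 6.08, Pfkl+Pfkp -4.94 to 7.81, Hk1 -1.23 to 4.67, Pgam1 -1.63 to 6.57 and Eno1 -7.29 to 10.4. The Pgm2 share had a difference of 0.319 as a log2 ratio; without both hearts numbered 2 it was 0.130 points, and that of Eno1 -0.306. No isoform share passed in any of these (0 of 9 each), though without both hearts numbered 2, with 3 hearts against 3, no p under 0.10 is possible. Depth limited Aldoc, at 0 to 21 reads a library, more than any other member.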
